A study of Mus musculus with 12 samples.

Results

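The respiratory chain genes are the genes of complexes I to V, which sit in the inner membrane of the mitochondrion. They were taken by symbol from a table of 56691 gene IDs (Ndufa, Ndufb, Ndufc, Ndufs and Ndufv genes, Uqcr genes, Cox4 to Cox8 genes and Atp5 genes, the 4 Sdh genes, Cyc1, and the mt-Nd, mt-Co, mt-Cytb and mt-Atp genes). Of 113 IDs whose symbols matched, 100 were protein-coding, and 7 of these had too few counts, which left 93 genes with at least 10 counts in at least 3 of 12 libraries. Of the 93, 80 are nuclear genes and 13 are encoded in mitochondrial DNA. By complex, the nuclear genes number 36 for complex I, 4 for complex II, 9 for complex III, 14 for complex IV and 17 for complex V, and the mitochondrial ones 7, 0, 1, 3 and 2. The rule used symbols and counts, with earlier results of these data known.

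The libraries are bulk RNA of CD8+ T cells from mouse spleen, 3 in each of 4 groups: Senp1 CKO (CKO commonly stands for conditional knockout) at 48 h, Senp1 WT at 48 h, Senp1 CKO at 0 h and Senp1 WT at 0 h. Senp1 encodes a protease that takes the small protein SUMO off other proteins. The 48 h cells had been stimulated with anti-CD3 at 5 µg/ml and anti-CD28 at 1 µg/ml, antibodies that trigger the T-cell receptor complex and a costimulatory receptor, and the 0 h cells had not. The design text calls the cells naïve; the sources used here name neither a Cre driver nor the deleted exons, and give no strain, no age and no number of mice behind a library.

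Complexes I and II pass electrons from NADH and succinate to coenzyme Q, complex III passes them on to cytochrome c, and complex IV hands them to oxygen. Complexes I, III and IV pump protons, and complex V, the ATP synthase, uses the gradient to make ATP. Mitochondrial DNA encodes the hydrophobic cores of complexes I, III, IV and V, while every complex II subunit is nuclear, so most complexes need mRNAs from 2 genomes. Resting T cells live largely on respiration, and activation adds glycolysis and growth of the mitochondrial mass.

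Library totals ran from 15900529 to 22427151 counts. Levels are CPM, the counts relative to library totals scaled by the TMM method, and a gene was called at an edgeR quasi-likelihood p under 0.05 after Benjamini-Hochberg adjustment over 15935 genes. The targeted gene was checked against the labels: Senp1 read 70.0, 74.5 and 66.3 CPM in CKO against 150, 171 and 164 CPM in WT at 48 h, and 56.5, 59.8 and 54.6 CPM in CKO against 83.9, 85.4 and 77.9 CPM in WT at 0 h. All 8 CD8 T-cell markers were read in every group, with summed levels of 1930 to 2010 CPM in CKO and 2300 to 2420 CPM in WT at 48 h, and 4150 to 4370 CPM in CKO and 4240 to 4470 CPM in WT at 0 h. The 10 B-cell markers summed to 281 to 293 CPM in CKO and 305 to 356 CPM in WT at 48 h, against 782 to 864 CPM in CKO and 912 to 1700 CPM in WT at 0 h, with none at 0. The 10 myeloid markers summed to at most 11.2 CPM at 48 h and to between 46.7 and 87.0 CPM at 0 h, with C1qa at 0 in CKO at 48 h; of 5 neutrophil markers 4 were at 0 in each 48 h group. The part of these other cells in the results below was not tested. In bulk RNA, fewer cells of a type and less RNA per cell cannot be told apart. WT replicate 1 at 48 h stood apart from the other libraries of its group, and some of the results that rest on it are given with and without it.

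Most nuclear respiratory chain genes were higher in stimulated cells at 48 h than in unstimulated cells at 0 h, while few mitochondrial mRNAs were called in either direction. All 48 h libraries were stimulated and all 0 h libraries were not, so stimulation and the time in culture cannot be told apart. In CKO cells 68 of the 93 genes were higher and 5 lower at 48 h than at 0 h, and in WT cells 70 were higher and 5 lower. Among all genes tested 77.7% were called in CKO (38.5% higher and 39.2% lower) and 77.9% in WT (38.7% higher and 39.1% lower), so that calls as such were common and the direction was uneven among the members. Of the 80 nuclear genes 67 were higher and 5 lower in CKO, and 70 were higher and 3 lower in WT. Their median log2 change was 0.75 in CKO and 0.90 in WT, beside -0.04 and -0.03 over all genes. With a log2 change of at least 1 also required, 24 members were higher and 1 lower in CKO and 33 higher and 1 lower in WT, beside 22.3% and 25.0% of the genes tested in CKO and 22.5% and 24.8% in WT.

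**Figure D1:**
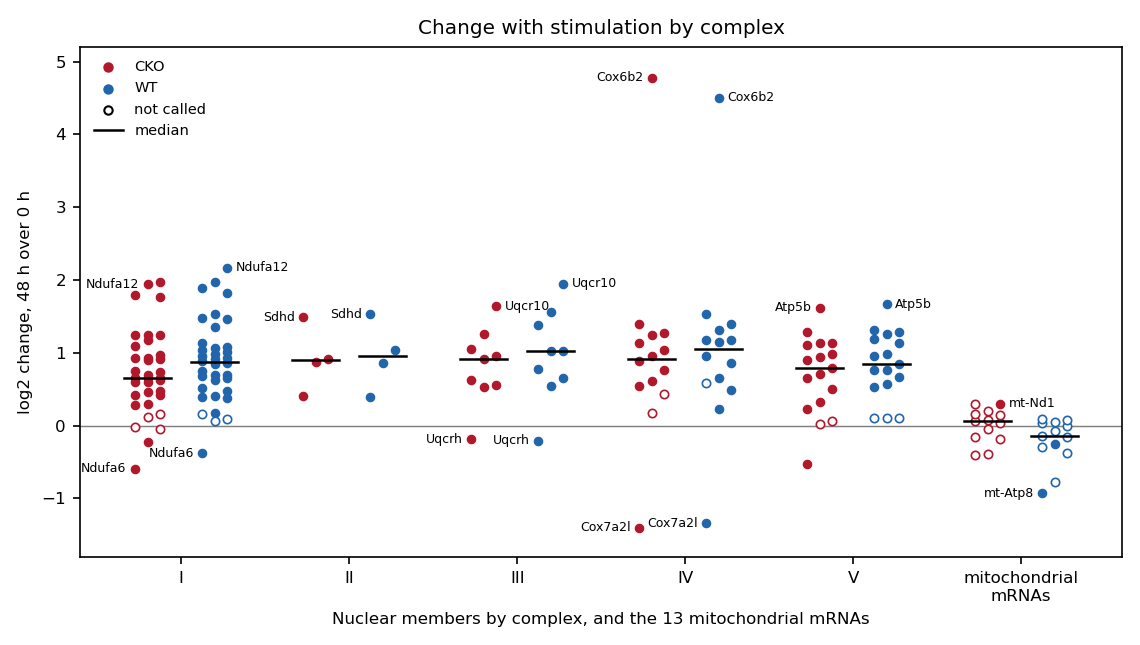
Log2 change from 0 h to 48 h (vertical axis) of each nuclear gene by complex and of the 13 mitochondrial mRNAs, CKO in red left of WT in blue; filled points passed the test, open points did not, and bars are medians. The medians of the nuclear complexes lie between 0.65 and 1.05, those of the mitochondrial mRNAs at 0.07 in CKO and -0.14 in WT, and Cox6b2 and Cox7a2l stand farthest from the rest.

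The genotypes moved the same nuclear genes: 67 were higher in both genotypes, 3 were lower in both (Cox7a2l, Ndufa6 and Uqcrh) and 5 were called in neither (Ndufs7, Ndufa3, Cox7a1, Atp5h and Atp5l). Across the 80 genes, which are not independent replicates, the CKO and WT log2 changes had a Pearson r of 0.98, and 0.97 over the 79 left without Cox6b2. Ndufb7, Ndufb10 and Cox4i1 were called higher in WT alone, and Ndufb11 and Atp5s were called lower in CKO alone. None of these differences in response passed the test of the difference itself, described at the end.

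As a summed level, the nuclear genes stood at 8948, 9044 and 9018 CPM in CKO and 10160, 9073 and 9301 CPM in WT at 48 h, against 4915, 5235 and 4992 CPM in CKO and 5247, 4866 and 5167 CPM in WT at 0 h. The 48 h and 0 h libraries did not overlap, and WT replicate 1 was the highest at 48 h. Atp5b and Atp5a1 made up the largest parts of this sum. In CKO they averaged 1590 and 1030 CPM at 48 h, against 518 and 478 CPM at 0 h. In WT they averaged 1600 and 1030 CPM at 48 h, against 502 and 468 CPM at 0 h. The nuclear genes took 0.895% ± 0.00676 of all counts in CKO and 0.933% ± 0.0486 in WT at 48 h, and 0.513% ± 0.0148 in CKO and 0.512% ± 0.0199 in WT at 0 h (SD, n = 3 each). The 13 mitochondrial mRNAs took 2.19% ± 0.161 in CKO and 2.11% ± 0.212 in WT at 48 h, and 2.22% ± 0.128 in CKO and 2.33% ± 0.291 in WT at 0 h. The ratio of mitochondrial to nuclear counts was therefore 2.44 ± 0.161 in CKO and 2.27 ± 0.252 in WT at 48 h, against 4.33 ± 0.359 in CKO and 4.56 ± 0.561 in WT at 0 h. These ratios are of counts, with no test, since no p is given for a sum over chosen genes. The mitochondrial share and the ratio rest almost wholly on 7 genes. The other 6 held 0.245% of the mitochondrial mRNA counts, and their levels are uncertain, as described below.

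Complex I, the NADH dehydrogenase, has a catalytic core and many added (supernumerary) subunits that surround it. Of its 36 nuclear genes 30 were higher and 2 lower in CKO, and 32 higher and 1 lower in WT, with medians of 0.65 and 0.87. Of the 7 core genes 6 rose in each genotype. Ndufv1, which binds NADH, stood at 99.7 ± 1.12 CPM in CKO and 107 ± 2.03 CPM in WT at 48 h, against 52.4 ± 3.57 CPM in CKO and 55.7 ± 1.34 CPM in WT at 0 h (SD, n = 3 each). Ndufs7, an iron-sulphur core subunit, was the exception, at log2 changes of -0.02 ± 0.106 in CKO and 0.09 ± 0.104 in WT (SE, edgeR adjusted p = 0.863 and 0.411).

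The largest changes in complex I were in supernumerary subunits. Ndufa12, of the matrix arm, read 57.5, 59.1 and 54.9 CPM in CKO and 64.6, 56.7 and 56.0 CPM in WT at 48 h, against 14.6, 15.9 and 14.1 CPM in CKO and 12.3, 11.6 and 15.8 CPM in WT at 0 h. Every 48 h library was above every 0 h library, and the log2 change was 1.94 ± 0.103 in CKO and 2.17 ± 0.103 in WT (SE, edgeR adjusted p = 1.01e-12 and 1.92e-13). Ndufb6 of the membrane arm changed by 1.97 in CKO and 1.89 in WT, and Ndufc2, also of the membrane arm, by 1.77 and 1.97. Ndufab1, the mitochondrial acyl carrier protein, changed by 1.80 in CKO and 1.82 in WT.

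Ndufa6 went the other way. It encodes a matrix-arm subunit of the LYR family that binds the acyl carrier protein, so a gene and its binding partner changed in opposite directions. Ndufa6 read 27.2, 26.1 and 26.7 CPM in CKO and 41.0, 32.9 and 30.0 CPM in WT at 48 h, against 39.5, 41.9 and 39.2 CPM in CKO and 44.0, 44.6 and 46.9 CPM in WT at 0 h. It fell by 0.59 ± 0.0954 on the log2 scale in CKO and by 0.38 ± 0.0929 in WT (SE, edgeR adjusted p = 1.38e-05 and 0.000955). Ndufb11, a membrane-arm subunit, stood at 44.1 ± 3.35 CPM in CKO and 50.8 ± 3.38 CPM in WT at 48 h, against 51.4 ± 3.08 CPM in CKO and 48.2 ± 0.903 CPM in WT at 0 h; its log2 change was -0.22 ± 0.0774 in CKO and 0.07 ± 0.0767 in WT (edgeR adjusted p = 0.0141 and 0.382). The Ndufb11 call in CKO ended without CKO replicate 2 at 0 h (edgeR adjusted p = 0.0843) or CKO replicate 1 at 48 h (0.101).

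All 4 genes of complex II, succinate dehydrogenase, rose in both genotypes. Sdhd, a membrane anchor that helps to bind coenzyme Q, changed most: it read 115, 122 and 122 CPM in CKO and 127, 124 and 151 CPM in WT at 48 h, against 42.6, 43.4 and 42.4 CPM in CKO and 42.0, 44.9 and 52.4 CPM in WT at 0 h. The 48 h and 0 h libraries were far apart, with a log2 change of 1.49 ± 0.0849 in CKO and 1.53 ± 0.0841 in WT (SE, edgeR adjusted p = 3.49e-12 and 1.79e-12). Sdhb, the iron-sulphur subunit, changed by 0.91 in CKO and 1.04 in WT, and Sdhc, the other anchor, by 0.88 and 0.86. Sdha, the flavoprotein that oxidises succinate, changed least, by 0.40 ± 0.0534 in CKO and 0.39 ± 0.0533 in WT (edgeR adjusted p = 1.16e-06 and 1.56e-06).

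In complex III, the cytochrome bc1 complex, 8 of 9 nuclear genes were higher and 1 lower in each genotype. Cyc1, which is cytochrome c1, stood at 90.5 ± 5.34 CPM in CKO and 100 ± 11.9 CPM in WT at 48 h, against 47.8 ± 2.95 CPM in CKO and 49.2 ± 3.94 CPM in WT at 0 h (log2 change 0.92 in CKO and 1.02 in WT). The small subunits Uqcr10, Uqcr11 and Uqcrq changed most, by 1.64, 1.26 and 1.05 in CKO and by 1.95, 1.56 and 1.38 in WT. Uqcrc1, a large subunit on the matrix side, changed by 0.56 in CKO and 0.54 in WT. Uqcrh, the hinge protein that lies beside cytochrome c1, was lower: 113 ± 3.19 CPM in CKO and 118 ± 6.98 CPM in WT at 48 h, against 129 ± 9.35 CPM in CKO and 137 ± 7.69 CPM in WT at 0 h, a log2 change of -0.19 ± 0.0675 in CKO and -0.21 ± 0.0671 in WT (edgeR adjusted p = 0.0138 and 0.00694). The Uqcrh call ended in CKO without replicate 3 at 0 h (edgeR adjusted p = 0.108) or replicate 1 at 48 h (0.0565), and in WT without replicate 3 at 0 h (0.0507) or replicate 2 at 48 h (0.0528).

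Complex IV, cytochrome c oxidase, held both extremes. Of its 14 nuclear genes (Ndufa4 is placed here, since its protein is found with complex IV) 11 were higher and 1 lower in CKO, and 12 higher and 1 lower in WT. Several of its subunits exist as isoforms of different tissues, and these were compared as pairs. Cox6b2, known mainly from testis, read 13.7, 14.2 and 14.7 CPM in CKO and 16, 12.9 and 14.1 CPM in WT at 48 h, against 0.553, 0.303 and 0.670 CPM in CKO and 0.229, 0.962 and 0.654 CPM in WT at 0 h. In raw counts it had 245 to 311 per library at 48 h and 4 to 19 at 0 h. The log2 change was 4.78 ± 0.283 in CKO and 4.50 ± 0.269 in WT (SE, edgeR adjusted p = 6.18e-12 and 6.91e-12), the largest of any member in each genotype. Its common partner Cox6b1 remained the more abundant per length, at 169 CPM per kb in CKO and 180 CPM per kb in WT at 48 h, beside 12.8 and 12.9 CPM per kb for Cox6b2. Cox6b1 changed by 1.14 in CKO and 1.15 in WT.

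Cox7a2l was the lowest member in the response of each genotype. It encodes a protein of the Cox7a family, also called SCAF1, that joins complexes III and IV into a supercomplex. It read 112, 117 and 107 CPM in CKO and 132, 118 and 131 CPM in WT at 48 h, against 291, 303 and 294 CPM in CKO and 338, 308 and 317 CPM in WT at 0 h. All 48 h libraries lay below all 0 h libraries, and the log2 change was -1.40 ± 0.0622 in CKO and -1.34 ± 0.0619 in WT (SE, edgeR adjusted p = 6.83e-14 and 1.25e-13). Cox7a2, the usual Cox7a subunit of complex IV, moved up by 1.24 in CKO and 1.40 in WT, so that Cox7a2 stood at 81.4 CPM per kb in CKO and 103 CPM per kb in WT at 48 h, beside 75.9 and 86.0 CPM per kb for Cox7a2l. At 0 h Cox7a2 stood at 34.5 CPM per kb in CKO and 39.1 CPM per kb in WT, beside 200 and 217 CPM per kb for Cox7a2l. The order of these paralogs per length was thus reversed between the times in each genotype, with no test of that order. The reversal rests on the merged exon lengths, 944 bases for Cox7a2 and 1478 for Cox7a2l. In CPM Cox7a2 stayed below Cox7a2l at 48 h, at 76.9 against 112 CPM in CKO and 97.1 against 127 CPM in WT.

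Of the other complex IV genes, Cox5a, which lies on the matrix side, changed by 1.40 in CKO and 1.53 in WT, and Cox7b by 1.27 and 1.32. Cox4i1, the common form of the largest nuclear subunit, changed little, at 0.17 ± 0.0797 in CKO and 0.23 ± 0.0793 in WT (SE, edgeR adjusted p = 0.0584 and 0.0134). Without WT replicate 1 at 48 h the Cox4i1 call changed sides, to edgeR adjusted p = 0.00685 in CKO and 0.0734 in WT, and it also ended in WT without WT replicate 2 at 0 h (0.065) and was made in CKO without WT replicate 2 at 48 h (0.034). Cox6a1 changed by 0.89 in CKO and 0.96 in WT, Cox8a by 0.95 and 1.18, and Ndufa4 by 1.04 and 1.17. The muscle form Cox7a1 stayed at or below 1.10 CPM in every library and was not called. The partner isoforms Cox4i2, Cox6a2, Cox7b2, Cox8b and Cox8c and the Ndufa4 relative Ndufa4l2 were left out for low counts: Cox6a2 had 1 to 19 counts per library, Cox4i2 at most 9, Ndufa4l2 at most 2 and the others 0.

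**Figure D2:**
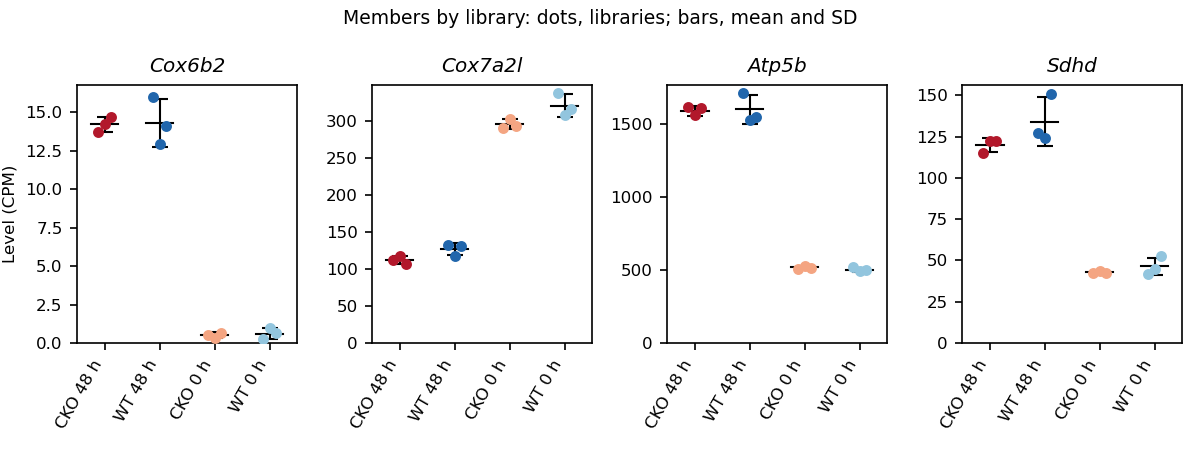
Level in CPM (vertical axes, from 0) of 4 members in the 12 libraries, CKO and WT at 48 h left of CKO and WT at 0 h; points are libraries and bars the mean and SD of 3. Cox6b2 rises to 14.2 and 14.3 CPM on average at 48 h, Cox7a2l is at 112 and 127 CPM at 48 h and at 296 and 321 CPM at 0 h, and the 48 h and 0 h libraries of Atp5b and Sdhd do not overlap.

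In complex V, the ATP synthase, 14 of 17 nuclear genes were higher in each genotype and 1 was lower in CKO. All 5 genes of the catalytic F1 head rose. Atp5b, the beta subunit that makes ATP, read 1620, 1560 and 1610 CPM in CKO and 1710, 1530 and 1550 CPM in WT at 48 h, against 508, 528 and 517 CPM in CKO and 519, 490 and 497 CPM in WT at 0 h. The change of 1.62 ± 0.0567 in CKO and 1.67 ± 0.0568 in WT (log2, SE, edgeR adjusted p = 1.72e-15 and 1.08e-15) was the largest in this complex. Atp5a1, the alpha subunit, changed by 1.11 in CKO and 1.14 in WT, while Atp5e, the small epsilon subunit, changed by 0.32 and 0.57. These head subunits differ in copy number per enzyme, and the summed level of complex V was 4337 ± 13.2 CPM in CKO and 4442 ± 238 CPM in WT at 48 h, against 2013 ± 55.9 CPM in CKO and 1990 ± 72.1 CPM in WT at 0 h (SD, n = 3 each).

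The proton-carrying c-ring is made from 3 genes that encode the same mature protein, and all 3 rose. Atp5g1 changed by 1.13 in CKO and 1.19 in WT, Atp5g3 by 1.13 and 1.31, and Atp5g2 by 0.50 and 0.67. Per length Atp5g3 was the highest of them, at 95.7 CPM per kb in CKO and 106 CPM per kb in WT at 48 h, against 43.7 and 42.8 CPM per kb at 0 h. In the stalk that holds the head, Atp5f1 changed by 1.28 in CKO and 1.29 in WT, and Atp5h was not called, at 0.02 ± 0.0799 and 0.10 ± 0.0793 (edgeR adjusted p = 0.798 and 0.247). Reads of Atp5h are uncertain, since the processed pseudogene Gm10250 matches 71.1% of its transcript at 99% identity and held 184 to 333 counts per library of its own, beside 1512 to 2436 for Atp5h. The same holds for Atp5l, also uncalled, where Gm10221 matches 56.8% of the transcript at 100% identity. Gm10221 held 104 to 274 counts per library, beside 1447 to 2194 for Atp5l. In all 7 nuclear members have a copy at 95% identity or more over at least 50% of the transcript. Atp5s, a coupling factor with under 7 CPM in every library, stood at 4.07 ± 0.577 CPM in CKO and 4.79 ± 1.05 CPM in WT at 48 h, against 5.89 ± 0.779 CPM in CKO and 4.48 ± 0.427 CPM in WT at 0 h. Its log2 change was -0.53 ± 0.210 in CKO and 0.10 ± 0.209 in WT (edgeR adjusted p = 0.027 and 0.668). The Atp5s call ended without CKO replicate 2 or 3 at 0 h (edgeR adjusted p = 0.107 and 0.0568) or CKO replicate 1 or 2 at 48 h (0.0561 and 0.114).

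Other names of the same complexes lay outside the symbol rule. Atpif1, the inhibitor that stops the ATP synthase from running backwards, read 40.3, 40.7 and 36.9 CPM in CKO and 42.3, 34.1 and 36.8 CPM in WT at 48 h, against 6.82, 6.84 and 7.25 CPM in CKO and 8.13, 6.99 and 8.15 CPM in WT at 0 h. Its change of 2.49 ± 0.111 in CKO and 2.29 ± 0.108 in WT (log2, SE, edgeR adjusted p = 6.58e-14 and 1.75e-13) exceeded that of every nuclear complex V member. Usmg5, a small subunit of the synthase, changed by 0.91 in CKO and 0.97 in WT. Ndufb1-ps, which is annotated as a non-coding RNA despite its name, changed by 1.27 in CKO and 1.39 in WT.

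To set these changes beside the DNA in front of the genes, 120 bases before the RefSeq transcription start (GRCm38.p6) are shown for the complex II gene that changed most, for both extremes of complex IV and for the member that differed between genotypes. Capitals mark matches, on either strand, to the 12-letter NRF1 consensus, to the ETS pattern CCGGAAG or to CCAAT. All 4 genes are on the minus strand, at chr9:50603850-50603969, chr7:4753095-4753214, chr17:83514334-83514453 and chr4:123718187-123718306 in the order given.
Sdhd: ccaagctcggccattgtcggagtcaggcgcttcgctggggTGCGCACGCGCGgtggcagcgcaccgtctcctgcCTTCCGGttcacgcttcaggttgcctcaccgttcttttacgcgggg
Cox6b2: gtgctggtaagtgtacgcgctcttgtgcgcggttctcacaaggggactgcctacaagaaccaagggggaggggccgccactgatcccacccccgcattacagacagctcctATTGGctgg
Cox7a2l: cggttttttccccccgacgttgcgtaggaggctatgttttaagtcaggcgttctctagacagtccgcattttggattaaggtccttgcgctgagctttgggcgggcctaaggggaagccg
Ndufs5: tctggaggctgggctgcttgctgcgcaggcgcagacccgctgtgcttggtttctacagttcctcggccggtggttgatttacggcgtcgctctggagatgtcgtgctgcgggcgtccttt
Sdhd holds an NRF1 and an ETS match and Cox6b2 a CCAAT match in these bases, and Cox7a2l and Ndufs5 hold no exact match to the letters searched. For each gene the first start listed was used, and other starts were not searched. The Cox7a2l window lies inside the annotated gene, whose upstream end is at chr17:83517330 (GRCm38).

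NRF1, the ETS factor GABP and YY1 are known to bind promoters of nuclear respiratory genes. In windows from 250 bases before to 50 after the start, which were at hand for 65 of the 80 nuclear members, the NRF1 consensus occurred in 6 (9.23%), against 3.06% of 9749 promoters of genes tested and 1.93% of 16500 coding promoters. The YY1 letters AAGATGGCG occurred in 6 (9.23%), against 3.31% and 2.05%. CCGGAAG occurred in 15 (23.1%), against 18.8% and 12.3%, and CCAAT in 28 (43.1%), against 39.1% and 38.7%. All were searched on both strands, and none of these patterns contains another. The 6 genes with the NRF1 consensus (Atp5g2, Ndufa11, Ndufa6, Ndufb4, Sdhd and Uqcrc1) had a median log2 change of 0.53 in CKO and 0.60 in WT, and the 59 without it 0.90 and 0.96. The genes with the NRF1 consensus include Sdhd, which changed most in complex II, and Ndufa6, which was lower. For CCGGAAG the medians with and without it were 0.89 and 0.78 in CKO and 0.98 and 0.92 in WT. For the YY1 letters they were 0.81 and 0.79 in CKO and 0.94 and 0.95 in WT. For CCAAT they were 0.75 and 0.90 in CKO and 0.91 and 0.95 in WT. None of these medians was compared by a test. A match is a string of letters in a window and no measured binding.

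Relative to library totals, the mitochondrial mRNAs did not follow the nuclear genes. Amounts of mRNA per cell were not measured, for these or for the nuclear genes. Of 13 genes mt-Nd1 was called higher in CKO, and mt-Co1 and mt-Atp8 were called lower in WT, and none was called in both genotypes. These calls moved with the settings. With a stricter count filter, which left 11 of the 13, 2 were lower in CKO (mt-Co1 and mt-Atp6) and 4 in WT (mt-Co1, mt-Atp6, mt-Co3 and mt-Nd2), so that mt-Co1 and mt-Atp6 were then called in both genotypes. mt-Co1 was also called lower in both in fits of only the groups compared, and mt-Atp6 in both without WT replicate 3 at 48 h. Their medians were 0.07 in CKO and -0.14 in WT, which differ in sign; with single libraries left out they lay between 0.02 and 0.13 in CKO and between -0.23 and 0.02 in WT. The log2 changes of the 7 abundant genes ran from -0.15 to 0.30 in CKO and from -0.25 to 0.09 in WT. In each group mt-Co1, the catalytic core of complex IV, was the highest of all 93 members per length, at 5760 CPM per kb in CKO and 5610 CPM per kb in WT at 48 h, and 6420 CPM per kb in CKO and 6670 CPM per kb in WT at 0 h. It was followed by mt-Cytb, the cytochrome b of complex III, and by mt-Nd1, mt-Nd2 and mt-Nd5 of complex I. This order is that of the deposited counts. The levels of 6 mitochondrial genes are uncertain, as described below, and so are their ranks.

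mt-Nd1, a membrane subunit of complex I, read 3070, 3570 and 3140 CPM in CKO and 2940, 2770 and 3370 CPM in WT at 48 h, against 2690, 2660 and 2610 CPM in CKO and 2860, 3010 and 3730 CPM in WT at 0 h. The CKO libraries of the 2 times did not overlap and the WT libraries did. Its log2 change was 0.30 ± 0.0941 in CKO and -0.08 ± 0.094 in WT (SE, edgeR adjusted p = 0.00978 and 0.447), and the call in CKO ended without CKO replicate 2 at 48 h (edgeR adjusted p = 0.0533). mt-Co1 read 8590, 9550 and 8570 CPM in CKO and 8610, 7780 and 9620 CPM in WT at 48 h, against 10800, 9120 and 9790 CPM in CKO and 9440, 10000 and 11500 CPM in WT at 0 h. Its libraries overlapped in each genotype, at log2 changes of -0.15 ± 0.0872 in CKO and -0.25 ± 0.0872 in WT (edgeR adjusted p = 0.116 and 0.016), and the call in WT ended without replicate 3 at 0 h (0.103), replicate 1 at 48 h (0.133) or replicate 2 at 48 h (0.128). mt-Cytb changed by 0.08 in CKO and 0.09 in WT, mt-Nd2 by 0.07 and -0.16, mt-Nd4 by 0.04 and 0.05, mt-Nd5 by 0.16 and 0.04 and mt-Nd6 by 0.14 and 0.08, none of them called. mt-Nd2 was called lower in WT without WT replicate 1 at 0 h (edgeR adjusted p = 0.0186) or WT replicate 3 at 48 h (0.0316). In the other direction, mt-Nd5 was called higher in CKO without WT replicate 1 or 3 at 0 h (edgeR adjusted p = 0.0245 and 0.0444), and mt-Nd6 and mt-Cytb were called higher in WT without WT replicate 3 at 0 h (0.0255 and 0.0429). Of the low genes, mt-Atp6, part of the proton channel of the ATP synthase, stood at -0.41 ± 0.196 in CKO and -0.38 ± 0.194 in WT (log2, SE, edgeR adjusted p = 0.068 and 0.0872), and mt-Co3 of complex IV at -0.19 ± 0.163 and -0.30 ± 0.161 (0.302 and 0.0985). mt-Atp6 was called lower in CKO without CKO replicate 2 at 48 h (edgeR adjusted p = 0.0101) or WT replicate 3 at 48 h (0.0421), mt-Atp6 and mt-Co3 were called lower in WT without WT replicate 3 at 48 h (0.0104 and 0.0199), and mt-Nd3 was called lower in WT without WT replicate 1 at 0 h (0.0406).

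**Figure D3:**
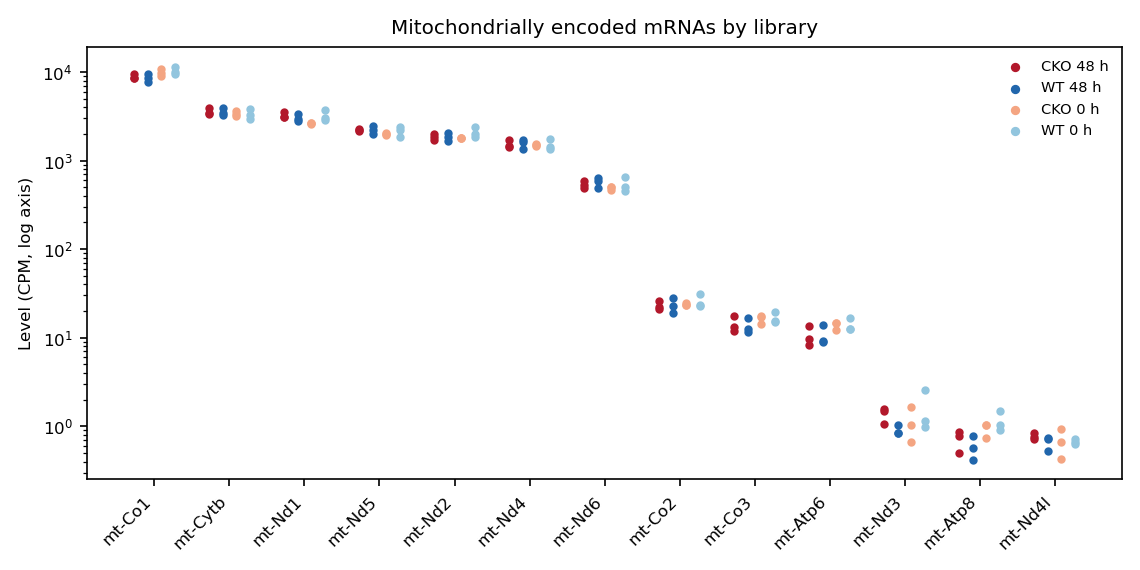
Level in CPM (vertical axis, logarithmic) of the 13 mitochondrially encoded mRNAs in each library, CKO and WT at 48 h left of CKO and WT at 0 h. The 4 groups lie close together for each of the 7 abundant genes, and 6 genes lie far below the other 7, from 31.3 CPM down to 0.421 CPM.

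A group of 6 mitochondrial genes was read far less than the other 7. mt-Co2, mt-Co3, mt-Atp6, mt-Nd3, mt-Atp8 and mt-Nd4l together held 0.245% of the mitochondrial mRNA counts, and at most 0.274% in any library. mt-Co1 had 147955 to 212024 counts per library, while mt-Co2 had 365 to 622, mt-Co3 221 to 364, mt-Atp6 148 to 304, mt-Nd3 11 to 43, mt-Atp8 8 to 25 and mt-Nd4l 7 to 16. In the cell these genes are transcribed as parts of the same long precursor as most of the abundant ones. In the GENCODE M21 transcripts (GRCm38), 5 of the 6 have a copy on chromosome 1 in an annotated pseudogene that is nearly the same over almost the whole transcript. Gm10925 matches 678 of 681 bases of mt-Atp6 at 100%, Gm28661 681 of 684 bases of mt-Co2 at 100%, and Gm28437 783 of 784 bases of mt-Co3 at 100%. Gm10222 matches 294 of 297 bases of mt-Nd4l at 100%, and Gm28438 345 of 348 bases of mt-Nd3 at 99.7%.

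The copies had counts of their own of the same order: Gm10925 had 300 to 505 per library, against 148 to 304 for mt-Atp6 itself, Gm28661 148 to 248, Gm28437 153 to 399, Gm28438 6 to 47 and Gm10222 7 to 16. Of the abundant genes, mt-Nd4 is matched by Gm28439 at 100%, but over 876 of its 1378 bases, and Gm13340 on chromosome 2 matches mt-Co1 at 97.6%. The first 60 bases of a gene and of its copy are shown for the identical pair and for the pair with a difference, in the direction of the gene (GRCm38; mt-Atp6 at chrM:7927-7986 and mt-Nd3 at chrM:9459-9518 on the plus strand, Gm10925 at chr1:24614592-24614651 and Gm28438 at chr1:24613060-24613119 on the minus strand).
mt-Atp6: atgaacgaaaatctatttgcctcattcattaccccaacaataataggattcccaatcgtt
Gm10925: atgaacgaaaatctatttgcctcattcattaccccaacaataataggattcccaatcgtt
mt-Nd3: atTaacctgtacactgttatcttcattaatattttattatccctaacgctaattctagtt
Gm28438: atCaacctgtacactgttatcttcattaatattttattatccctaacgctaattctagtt
The capital marks the difference in the second pair, T3C, counted from the first base of the gene with the base of mt-Nd3 first. The sources used here do not say how the authors treated reads that fit both places, and the part of the copies in the low counts was not tested. Levels of these 6 genes are uncertain. For mt-Atp8 the search found no copy at the thresholds used, and its counts are few. The call of mt-Atp8 is also uncertain, and rested on 8 to 25 counts per library (0.504, 0.768 and 0.860 CPM in CKO and 0.572, 0.421 and 0.772 CPM in WT at 48 h, against 1.04, 1.03 and 0.731 CPM in CKO and 1.03, 0.911 and 1.49 CPM in WT at 0 h). At -0.93 ± 0.413 (log2, SE, edgeR adjusted p = 0.0459) that call in WT was made under 6 of 20 alternatives. mt-Atp8 and mt-Atp6, and mt-Nd4l and mt-Nd4, also overlap each other in the mitochondrial genome, and mt-Nd6 lies on the opposite strand from the other mitochondrial members.

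Most genes that build or feed the chain were also higher at 48 h. Over all genes tested 38.5% were higher and 39.2% lower in CKO, and 38.7% higher and 39.1% lower in WT. The lists for single complexes are short, and no test compared them with each other. Of 52 assembly factors tested 37 were higher and 3 lower in CKO and 37 higher and 4 lower in WT, with medians of 0.70 and 0.71. For complex I 14 of 17 were higher in each genotype and for complex V 3 of 3, while for complex IV 15 of 22 were higher and 3 lower in CKO and 14 higher and 3 lower in WT. For complex II 2 of 4 were higher in CKO and 3 in WT, and for complex III 3 of 6 were higher in each genotype and 1 was lower in WT, with medians of 0.27 and 0.21. Tmem70, an assembly factor of the ATP synthase, changed by 2.21 ± 0.103 in CKO and 2.28 ± 0.104 in WT (log2, SE, edgeR adjusted p = 1.54e-13 and 1.01e-13). Higd1a, which associates with complex IV, changed by 2.36 in CKO and 2.72 in WT, the copper chaperone Cox17 by 1.33 and 1.26, and the complex I factor Ndufaf1 by 1.38 and 1.48. Of 13 genes of cytochrome c and coenzyme Q synthesis 10 were higher and 1 lower in each genotype. Cycs, cytochrome c itself, changed by 2.12 ± 0.0665 in CKO and 2.11 ± 0.0664 in WT (edgeR adjusted p = 3.45e-16 and 3.29e-16), Pdss1, which makes the tail of coenzyme Q, by 1.96 and 1.70, and Coq3 by 2.14 and 2.13. Coq8a, a regulator of coenzyme Q synthesis, was the gene that was lower, at log2 changes of -1.25 in CKO and -1.44 in WT.

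Most genes that transcribe mitochondrial DNA and keep its mRNAs were also higher, beside mitochondrial mRNAs that had few calls. Of 21 tested 17 were higher and 3 lower in CKO and 16 higher and 3 lower in WT. Fastkd3, of a family of mitochondrial RNA-binding proteins, changed by 2.58 ± 0.0962 in CKO and 2.38 ± 0.0938 in WT (log2, SE, edgeR adjusted p = 4.30e-15 and 1.02e-14), Pnpt1, part of the RNA degradation machinery, by 1.22 and 1.27, and Lrpprc, which stabilises mitochondrial mRNAs, by 0.87 and 0.92. Tfb2m, a transcription factor of mitochondrial DNA, was lower, at -0.57 in CKO and -0.81 in WT. Of 10 regulators of nuclear respiratory genes 7 were higher and 2 lower in CKO and 6 higher and 2 lower in WT. Nrf1 changed by 0.61 ± 0.0675 in CKO and 0.62 ± 0.0671 in WT (edgeR adjusted p = 8.00e-08 and 6.30e-08), Pprc1, a PGC-1 related coactivator, by 0.89 and 0.59, and Myc by 1.56 and 2.21. Ppargc1b, which encodes the coactivator PGC-1 beta, was lower, at -1.70 ± 0.140 in CKO and -1.38 ± 0.136 in WT (edgeR adjusted p = 1.16e-09 and 1.80e-08).

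Between genotypes few members differed. At 48 h 3 of 93 were lower in CKO than in WT (Ndufs5, Ndufa6 and Uqcrq) and 0 were higher, where 4.54% of all genes tested were called (2.35% higher and 2.19% lower). At 0 h 1 member was lower (Ndufs5) and 0 were higher, where 7.48% of all genes were called (4.10% higher and 3.38% lower). At an unadjusted edgeR p under 0.05 there were 22 members (23.7%) at 48 h, all of them lower in CKO, beside 16.7% of all genes, and 3 members (3.23%) at 0 h, also lower, beside 21.1% of all genes. The unadjusted count at 48 h used WT replicate 1 and was not taken without that library. DESeq2 called 4 lower and 0 higher at 48 h and 1 lower and 0 higher at 0 h.

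Ndufs5 was the member that differed at each time. It encodes a small supernumerary subunit of complex I on the side of the intermembrane space, and lies on chromosome 4 (GRCm38). It read 8.74, 8.56 and 9.01 CPM in CKO against 27.6, 22.8 and 24.1 CPM in WT at 48 h, and 3.63, 3.69 and 3.72 CPM in CKO against 9.39, 8.51 and 8.98 CPM in WT at 0 h. No CKO library reached a WT library of its time, and CKO held 0.353 of the WT level at 48 h and 0.411 at 0 h. It fell by 1.50 ± 0.120 on the log2 scale at 48 h and by 1.28 ± 0.138 at 0 h in CKO against WT (SE, edgeR adjusted p = 9.00e-08 and 4.51e-06), and was called under all 21 alternatives tried at each time. It was higher at 48 h than at 0 h in both genotypes, by 1.25 ± 0.138 in CKO and 1.47 ± 0.120 in WT, with a difference between the responses of -0.22 that was not called. No other transcript searched matched it at 95% identity over at least 50% of its length. Of 17 tested genes within 1 Mb of it on either side, Ppt1 alone was called, lower in CKO at 48 h and higher at 0 h. The median log2 difference of the 17 was 0.03 at 48 h (from -0.31 to 2.27) and 0.11 at 0 h (from -1.89 to 1.13). No other of the 36 nuclear complex I genes differed by more than 0.38 at 48 h or by more than 0.19 at 0 h.

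**Figure D4:**
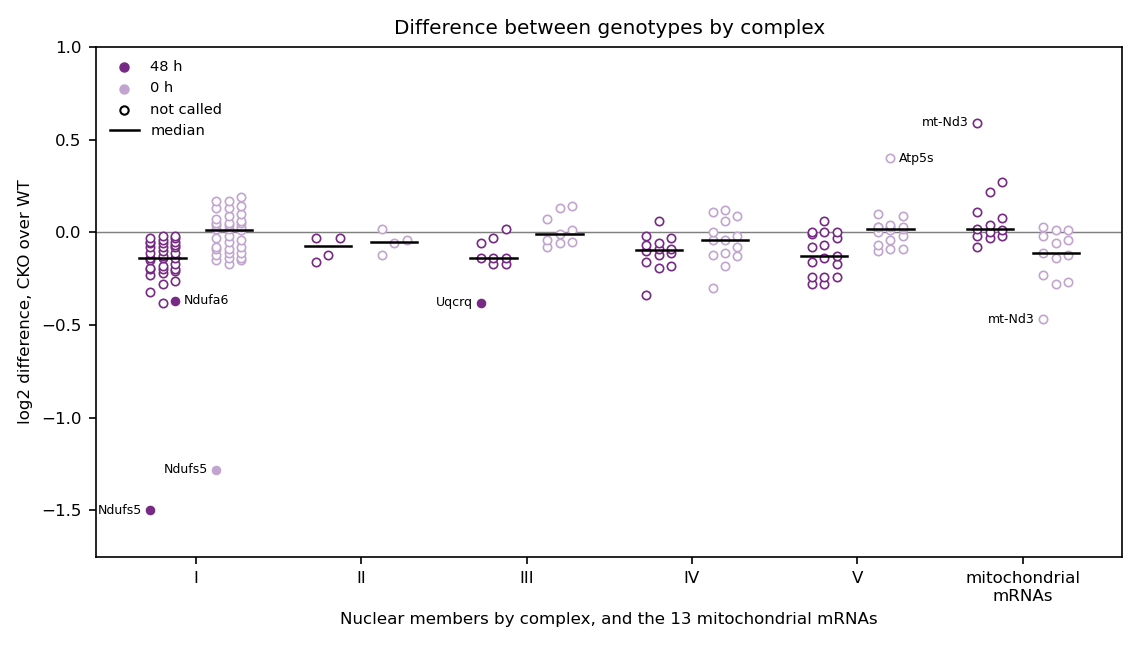
Log2 difference of CKO over WT (vertical axis) of each nuclear gene by complex and of the 13 mitochondrial mRNAs, 48 h in dark purple left of 0 h in light purple; filled points passed the test, open points did not, and bars are medians. Ndufs5 stands at -1.50 and -1.28, and the nuclear complexes lie slightly below 0 at 48 h and near 0 at 0 h.

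Ndufa6, with the values given above, was lower in CKO at 48 h by 0.37 ± 0.0951 (log2, SE, edgeR adjusted p = 0.0267). Uqcrq, a small subunit of complex III, read 57.0, 53.2 and 52.4 CPM in CKO against 82.2, 62.5 and 67.1 CPM in WT at 48 h, and 27, 28.2 and 23.0 CPM in CKO against 25.7, 25.4 and 30.4 CPM in WT at 0 h. It was lower in CKO at 48 h by 0.38 ± 0.0996 (edgeR adjusted p = 0.0329) and stood at -0.06 at 0 h (edgeR adjusted p = 0.830). For both genes the CKO and WT libraries of 48 h did not overlap, and WT replicate 1 was the highest. Without that library the differences were -0.24 for Ndufa6 and -0.27 for Uqcrq (edgeR adjusted p = 0.112 and 0.120), and the calls also ended without any 1 of the 3 CKO libraries of 48 h, and that of Uqcrq without WT replicate 3 at 48 h (0.0619). The next members by p at 48 h were Ndufv3, at 54.8 ± 5.91 CPM in CKO and 71.5 ± 11.5 CPM in WT (SD, n = 3 each; edgeR adjusted p = 0.0573), and Atp5g2, at 97.5 ± 4.13 CPM in CKO and 116 ± 8.62 CPM in WT (edgeR adjusted p = 0.0603). Ndufv3 was called by DESeq2 (adjusted p = 0.0327) and by edgeR without CKO replicate 2 at 48 h (adjusted p = 0.0452), WT replicate 1 at 0 h (0.0381) or WT replicate 2 at 48 h (0.0213), and Atp5g2 by edgeR without WT replicate 2 at 48 h (0.0293). With any other single library left out neither was called, at edgeR adjusted p of up to 0.244 for Ndufv3 and 0.27 for Atp5g2.

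**Figure D5:**
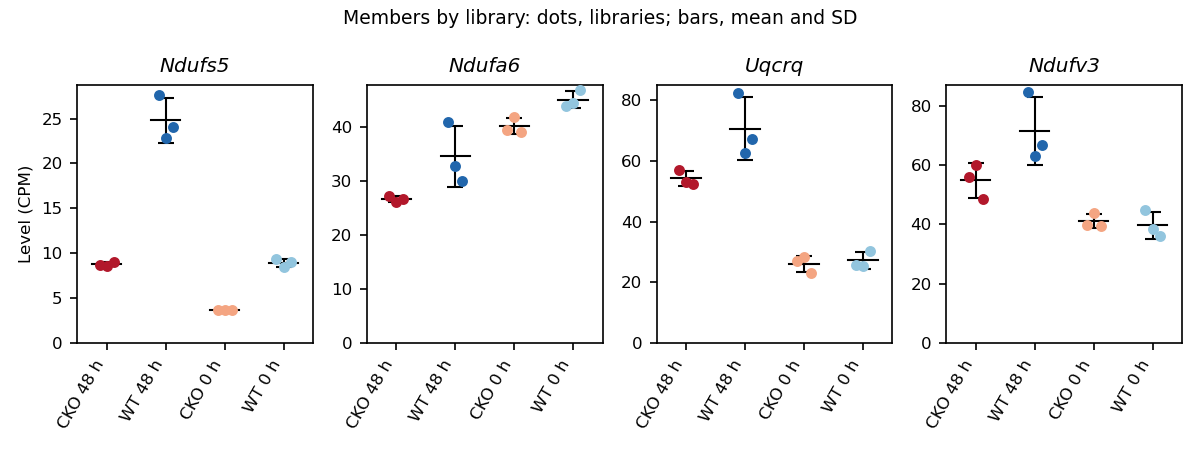
Level in CPM (vertical axes, from 0) of Ndufs5, Ndufa6, Uqcrq and Ndufv3 in the 12 libraries, CKO and WT at 48 h left of CKO and WT at 0 h; points are libraries and bars the mean and SD of 3. The CKO libraries of Ndufs5 lie below the WT libraries at each time, and WT replicate 1 is the highest 48 h library of the other 3 genes.

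Small differences at 48 h mostly had the same sign. Of the 80 nuclear members 75 had a log2 difference below 0 in CKO against WT, with a median of -0.12, beside 51.5% of all genes and a median of -0.01. Without WT replicate 1 at 48 h 63 of 80 were below 0, with a median of -0.07, beside 53.3% of all genes. All 36 nuclear complex I genes and all 4 complex II genes were below 0 with every library in the fit. At 0 h 40 of 80 were below 0, with a median of 0.00. The summed level of nuclear complex I was 1904 ± 26.6 CPM in CKO and 2101 ± 146 CPM in WT at 48 h, and 1161 ± 65.1 CPM in CKO and 1168 ± 45.8 CPM in WT at 0 h (SD, n = 3 each). At 48 h WT replicate 1 read 2270 CPM and WT replicates 2 and 3 read 2010 and 2023 CPM, beside 1876, 1929 and 1907 CPM in CKO. Several summed marker lists were also lower in every CKO library of 48 h than in every WT library of 48 h. They were the CD8 T-cell and B-cell markers (ranges given at the start), the 4 CD4 markers (56.7 to 76.7 CPM in CKO and 76.9 to 96.8 CPM in WT) and the 5 NK-cell markers (136 to 192 CPM in CKO and 226 to 262 CPM in WT). Their part in the small differences was not tested. The 5 activation markers overlapped (5290 to 5670 CPM in CKO and 5270 to 5700 CPM in WT), as did the myeloid, neutrophil, and erythroid and platelet markers.

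The mitochondrial mRNAs gave 0 calls between genotypes. At 0 h mt-Nd1 stood at -0.27 ± 0.0941 and mt-Nd2 at -0.23 ± 0.0852 in CKO against WT (log2, SE, edgeR adjusted p = 0.106 and 0.126), both with CKO libraries below all WT libraries, and at 48 h at 0.11 and 0.00. Without WT replicate 1 at 0 h both were called lower in CKO at 0 h (edgeR adjusted p = 0.0385 and 0.0371). Of the 7 abundant ones none differed by more than 0.11 at 48 h. Among related genes Tfb1m, which methylates mitochondrial ribosomal RNA, was lower in CKO at 48 h by 0.48 ± 0.133 and at 0 h by 0.64 ± 0.161 (edgeR adjusted p = 0.0453 and 0.0186). At 0 h Tbrg4 (-0.31), Tmem126b (-0.52) and Yy1 (-0.20) were also lower and Hccs, which attaches haem to cytochrome c, was higher (0.30). None of the 52 assembly factors was called at 48 h by edgeR, and Ppargc1b stood at -0.28 (edgeR adjusted p = 0.355).

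The response, from unstimulated cells at 0 h to stimulated cells at 48 h, was tested for a difference between genotypes by the interaction, the CKO response minus the WT response. In this test 0 of 93 members were called, where 1.38% of all genes were (0.609% higher and 0.772% lower), 11 members (11.8%) had an unadjusted edgeR p under 0.05, beside 12.8% of all genes, and DESeq2 called 0 members. The smallest p was that of mt-Nd1, at 0.38 ± 0.133 (log2, SE, edgeR adjusted p = 0.220), followed by Ndufb11 at -0.30 ± 0.109 (0.226), Ndufv3 at -0.43 ± 0.158 (0.231), Uqcr10 at -0.31 ± 0.118 (0.244) and Ndufs8 at -0.32 ± 0.131 (0.286). Of the nuclear members 68 of 80 had a response that was smaller in CKO, with a median difference of -0.11, beside 50.9% of all genes and a median of -0.01. It was 58 of 80 and -0.07 without WT replicate 1 at 48 h, 59 of 80 and -0.06 without WT replicate 2 at 0 h, and 60 of 80 and -0.06 without CKO replicate 2 at 0 h. The interaction and the comparison at 48 h share the same 48 h libraries.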

How the data were processed

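Polyadenylated RNA was sequenced from 12 libraries, made with TRIzol and a TruSeq Stranded mRNA kit per the labels' protocols. The authors deposited whole-number read counts per Ensembl gene ID, not normalized. Reads were trimmed with cutadapt and aligned with HISAT2 2.2.1, per the submitters' processing notes, which also name DESeq2 and the build GRCm39; the counting program, annotation release and strand setting were not named. Every column matched a sample, so 0 were left out. Nothing says that libraries of a group came from separate mice, and the p-values then speak of the spread among libraries, which may be technical.

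Symbols, biotypes, positions and transcript lengths came from GENCODE M21 (GRCm38), which gave 52073 of 56691 IDs a symbol. All 12 libraries entered a quasi-likelihood fit in edgeR 4.0.16 (R 4.3.3, limma 3.58.1) with TMM scaling, robust estimation and the default expression filter, which kept 15935 genes. Contrasts were 48 h against 0 h in each genotype, CKO against WT at each time, and the interaction. Standard errors are the log2 change divided by the square root of F. The fit was also run on simulated counts with the same spread for every gene and changes only in the 48 h CKO libraries. That setting is simpler than these data and does not show how the fit performs on them. CPM per kb divides by the length of the merged exons. Means are given with the SD. Copies are other annotated transcripts with at least 95% identity over at least 50% of a member's longest protein-coding transcript. Promoters are RefSeq windows (GRCm38.p6), the first listed for each gene. DESeq2 1.42.0 was an alternative, beside other scalings and filters, leaving out libraries, and a replicate block. Tables and figures used Python 3.11.15, pandas 2.3.3, NumPy 2.4.6 and matplotlib 3.10.9.

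The members, the related lists and the marker lists were chosen with earlier results of these data known. Named were Senp1, the mitochondrial genes, the Sdh genes and Cyc1, isoform pairs, the 5 highest per kb, for each nuclear complex and genotype the 3 highest and 2 lowest changes, for each genotype comparison the calls or 5 smallest p, and up to 4 smallest p per related list. Ndufs7, Ndufv1, Ndufa3, Ndufa11, Ndufb4, Ndufb7, Ndufb10, Atp5a1, Atp5e, Atp5l, Usmg5, Ndufb1-ps, Coq8a, Tfb2m and Myc were added after their values were seen, some as the members of a count of 5 or fewer or as the ends of a list.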

Additional observations from a re-analysis of the deposited data

How the results depend on the processing

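No member reversed its called direction. Requiring a log2 change of at least 1 left 24 members higher and 1 lower in CKO and 33 higher and 1 lower in WT with time and stimulation, and 1 lower in CKO against WT at 48 h. With no count filter 3 members were lower in CKO and 3 in WT with time and stimulation, 10 were lower in 48 h CKO cells than in 48 h WT cells, 3 were lower in 0 h CKO cells than in 0 h WT cells, and the interaction had 1 member higher (mt-Nd1, 0.35) and 1 lower (Ndufv3, -0.45). Without WT replicate 1 at both times 3 members were lower in WT with time and stimulation and 1 in CKO against WT at 48 h, and a fit of only the groups compared also gave 1 at 48 h; the interaction cannot be had in that fit. With single libraries left out, members higher with time and stimulation numbered 66 to 69 in CKO and 69 to 72 in WT, and members lower 2 to 6 in CKO and 2 to 8 in WT; between genotypes 1 to 6 were lower in CKO at 48 h, and 1 to 3 were lower in CKO at 0 h. In place of summed CPM (log2 change in CKO and in WT), the mean log2 CPM over members gave 0.92 and 0.95 for complex II, 0.81 and 0.95 for complex III, 0.91 and 0.97 for complex IV, 0.70 and 0.83 for complex V, and 0.77 for all nuclear members in CKO. For complex IV the sum was 1215 CPM in CKO and 1321 CPM in WT at 48 h, against 917.7 and 963.2 CPM at 0 h. The log2 change was thus smaller as a sum than as a mean for complexes II, III and IV, and larger for complex V. Libraries with the same number correlated weakly in their deviations (r from -0.011 to 0.162), under 0.1 in most pairs, so the numbers were not taken to pair the samples. Within a genotype the 6 same-number pairs ran from 0.0424 to 0.162 and every library correlated best with its own number at the other time, a hint from the data and not from the design. With the replicate block 5 members were lower in CKO against WT at 48 h, Ndufv3 (edgeR adjusted p = 0.0173) and Atp5g2 (0.0416) among them. DESeq2, another size factor, plain library totals, totals without mitochondrial counts and a stricter filter moved no count of called members in all by over 1.5 times. Within the 13 mitochondrial mRNAs the stricter filter gave 2 lower in CKO and 4 lower in WT. Over all genes DESeq2 called 200 higher and 218 lower in the interaction, where edgeR called 97 and 123. Of 196 gene results, 28 crossed the threshold under at least 1 of 21 alternatives. Causes were not tested. Few counts limit the precision of mt-Nd4l (7 to 16 per library), mt-Atp8 (8 to 25), mt-Nd3 (11 to 43) and Cox7a1 (3 to 20).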
